A study of Mus musculus with 6 samples.

Results

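The genes described here are 10 members of the basic helix-loop-helix (bHLH) class of transcription factors that are known from cortical neurons and their progenitors. They are the NEUROD genes Neurod1, Neurod2, Neurod4 and Neurod6, the neurogenins Neurog1 and Neurog2, the E proteins Tcf3, Tcf4 and Tcf12, and Bhlhe22. The genes were chosen for their family and kept whatever their values, though earlier results of these data were known at the time. A locus of the RNA-seq table was taken for a gene if at least 0.5 of the stretch covered by either lay in both. By this rule 9 of the 10 genes had a locus, each of them 1, among 32357 loci in all, and Neurod1 had none.

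The cells were primary cortical cultures of Balb/c mouse embryos (E14.5), electroporated in suspension by nucleofection and plated in medium with 10% serum. The control group received a non-silencing (NS) shRNA (2 libraries). The Neurod2 knockdown group received 1 of 2 shRNAs against Neurod2 (2 libraries each, 4 in all), and all shRNAs were carried by the pSuperneoGFP plasmid. Total RNA was sequenced as 50-base single-end reads. The labels give 4 days in vitro for the RNA, whereas the methods of the study name a later day. The sources used here describe no step that separated electroporated from other cells, so the RNA came from whole cultures. No genetic modification of the mice is named.

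For each locus the deposited table holds 1 value per group, in FPKM (mapped fragments per length of transcript and size of the library), pooled by the authors over the libraries of a group. The values of single libraries, their spread and their read depth are therefore unknown, both shRNAs stand in 1 value, and no difference between groups could be tested. A ratio of 1.5-fold in either direction is used below as a mark of size only. In such bulk RNA, fewer cells of a type and less RNA per cell cannot be told apart.

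Proteins of the bHLH class bind DNA as dimers, at E-boxes with the letters CANNTG. The neurogenins are known to act in progenitors, where they commit cells to a neuronal fate and switch on later bHLH genes, and the NEUROD proteins act in the neurons that follow. Both need a broadly expressed E protein as partner, and the ID proteins, which bind E proteins but lack a basic region, compete for it. In the developing cortex, Neurog2 marks progenitors of excitatory neurons, and Neurod2 and Neurod6 are found in the excitatory neurons themselves.

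The NEUROD genes and neurogenins are alike in sequence, which bears on whether short reads could be given to the right gene. The coding sequence of each of the 6 genes lies in a single exon, and the most alike stretch of 60 coding bases is shown for each, read 5′ to 3′ from GENCODE M21 transcripts on GRCm38. Capitals mark the bases that are identical in all 6 genes.
Neurod2 (chr11:98327809-98327868, - strand): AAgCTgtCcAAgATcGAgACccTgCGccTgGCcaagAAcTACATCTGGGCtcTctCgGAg
Neurod6 (chr6:55679207-55679266, - strand): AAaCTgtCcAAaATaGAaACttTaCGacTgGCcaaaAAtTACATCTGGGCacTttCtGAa
Neurod1 (chr2:79454573-79454632, - strand): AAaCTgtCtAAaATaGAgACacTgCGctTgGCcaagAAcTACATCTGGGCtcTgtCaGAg
Neurod4 (chr10:130270981-130271040, - strand): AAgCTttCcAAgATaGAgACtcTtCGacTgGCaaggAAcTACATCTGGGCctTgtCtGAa
Neurog2 (chr3:127634167-127634226, + strand): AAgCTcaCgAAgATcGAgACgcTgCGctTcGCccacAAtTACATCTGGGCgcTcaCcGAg
Neurog1 (chr13:56251492-56251551, - strand): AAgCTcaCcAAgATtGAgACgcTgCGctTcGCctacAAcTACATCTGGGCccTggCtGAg
Of these 60 bases, 36 were identical in all 6 genes. Neurod1 had 52 of the 60 bases in common with Neurod2, Neurod4, Neurog1 and Neurog2 had 48 each, and Neurod6 had 46. The longest run of coding bases common to a pair was 26, between Neurog1 and Neurog2, followed by 25 between Neurod1 and Neurod2, and Neurod2 and Neurod6 had no common run longer than 11. No stretch of 50 bases, the length of a read, occurred in the annotated protein-coding transcripts of more than 1 of the 10 genes, compared on the same strand. Neurod2, Neurod4, Neurod6, Neurog1, Neurog2, Tcf3 and Bhlhe22 also had no such stretch in common with any other gene, Tcf4 had 39 of 16615 (0.235%) and Tcf12 had 30 of 7965 (0.377%). Neurod1 had 259 of 2680 (9.66%), in common with Cerkl and Gm26755, which overlap it.

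Neurod2, the gene targeted by the shRNAs (chr11:98325415-98329648, minus strand, 2 exons of which 1 is coding, with no overlapping gene), was lower in the knockdown. Its level was 104.8 FPKM in the NS group and 60.3 FPKM in the knockdown group, which is 57.5% of the NS level. The log2 ratio was -0.80, a level 1.74-fold lower. The knockdown value thus went in the direction its label gives, and Neurod2 RNA remained in the culture as a whole. Among the 12612 loci with both values above 0 and a mean FPKM of at least 1, which serve as background here, 180 (1.43%) had a lower log2 ratio than Neurod2.

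Neurod6, the most abundant of the 9 genes with a locus and a close relative of Neurod2 in cortical neurons (chr6:55677822-55681263, minus strand), was measured at 274.1 FPKM in the NS group and 289.7 FPKM in the knockdown group. Its log2 ratio was 0.08, which is 5.71% higher, and 59.2% of the background loci lay farther from 0. Neurod4, a NEUROD gene known from neuronal differentiation in retina and hindbrain (chr10:130268152-130280240, minus strand), was close to the minimum of 1 FPKM, at 1.59 FPKM in the NS group and 1.38 FPKM in the knockdown group, with a log2 ratio of -0.20. Of the 3 NEUROD genes with a locus, Neurod2 alone was past 1.5-fold, Neurod4 was lower by less and Neurod6 was slightly higher.

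Neurod1, which acts in the differentiation of neurons and endocrine cells (chr2:79452521-79456751, minus strand), had no value of its own. Its span was covered by 2 loci at the same 201 kb position, which also hold the integrin gene Itga4 and the ceramide kinase-like gene Cerkl, and only 0.0204 of the stretch covered by either lay in both. One of these loci went from 11.4 to 14.1 FPKM and the other from 0.27 to 0.24 FPKM. These values cannot be assigned to Neurod1, so its level in either group is not given.

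**Figure D1:**
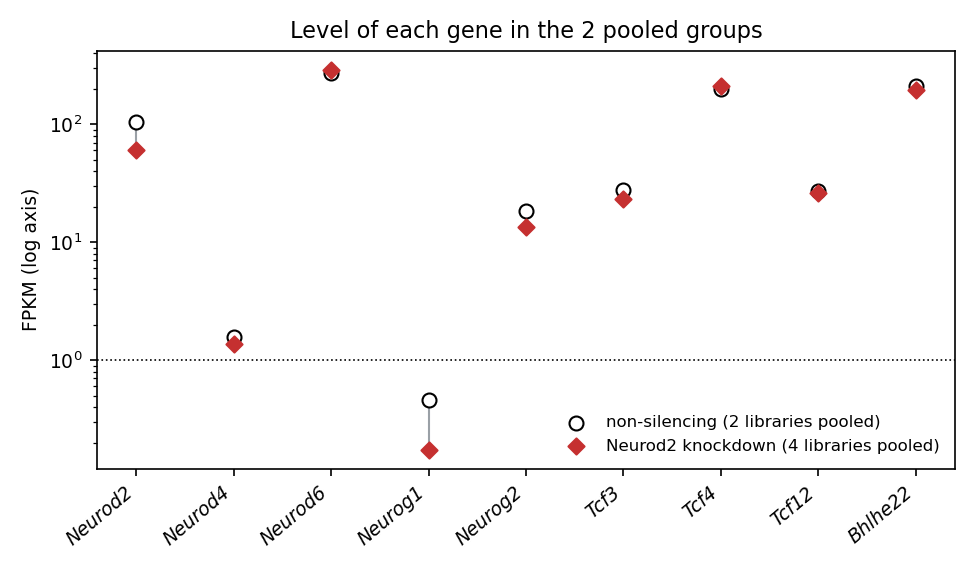
Level of each of the 9 genes with a locus, in FPKM on a log axis, in the NS group (open circles, 2 libraries pooled) and the Neurod2 knockdown group (red diamonds, 4 libraries pooled); the dotted line marks 1 FPKM, and no error bars can be given. Neurod2 lies at 104.8 and 60.3 FPKM and Neurog2 at 18.4 and 13.4 FPKM, whereas the symbols of Neurod6, Tcf4, Tcf12 and Bhlhe22 nearly coincide.

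Since Neurod6 was so much the larger, the summed level of the 3 NEUROD genes moved less than that of Neurod2. The sum was 381 FPKM in the NS group and 351 FPKM in the knockdown (log2 ratio -0.11). Neurod2 made up 27.6% of this sum in the NS group and 17.1% in the knockdown, and Neurod6 72.0% and 82.5%. The level of Neurod2 was 38.2% of that of Neurod6 in the NS group and 20.8% in the knockdown. Without Neurod2 the sum was 276 FPKM in the NS group and 291 FPKM in the knockdown. These shares compare RNA levels per transcript length and say nothing of the proteins.

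Neurog2, the main neurogenin of dorsal cortical progenitors (chr3:127633135-127635631, plus strand), had the second lowest ratio among the 8 genes with a mean FPKM of at least 1. It was measured at 18.4 FPKM in the NS group and 13.4 FPKM in the knockdown group. The log2 ratio was -0.46, which is 1.38-fold lower and within 1.5-fold, and 378 background loci (2.997%) had a lower ratio. Both of its cells had been turned into times by a spreadsheet and were restored. Of 1089 pairs of numbers that give these times, 1 matched the deposited log2 ratio. The values of Tcf3 and Bhlhe22 also include a restored cell.

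Neurog1, the other neurogenin of cortical progenitors (chr13:56250478-56252163, minus strand), was near the floor of the table, at 0.461 FPKM in the NS group and 0.175 FPKM in the knockdown group. With a mean of 0.318 FPKM it did not pass the minimum, and the authors had left its locus untested. Its log2 ratio of -1.40 shrank to -0.31 with 1 FPKM added to both values. Neurog1 is therefore not counted among genes past 1.5-fold. Added together, the neurogenins were at 18.9 FPKM in the NS group and 13.6 FPKM in the knockdown, nearly all of it Neurog2.

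Markers of progenitor cells gave the following values beside Neurog2. Of 8 measured markers of radial glia and dividing progenitors, none was past 1.5-fold, 5 had a ratio below 0 and 3 above, and the median log2 ratio was -0.040. Their summed level was 366 FPKM in the NS group and 354 FPKM in the knockdown. Eomes, a transcription factor of intermediate progenitors, had the lowest ratio of them, at 21.2 FPKM in the NS group and 16.1 FPKM in the knockdown (log2 ratio -0.39). Mki67 and Top2a, which mark dividing cells, were named, like Eomes, after their values were seen. They were at 17.7 and 69.0 FPKM in the NS group and at 18.3 and 70.0 FPKM in the knockdown. A part of progenitor number in the Neurog2 value was not tested.

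Among the E proteins, Tcf4 had the highest level in both groups, and Tcf3 and Tcf12 were close to each other. Tcf4, which is required for cortical development in humans and mice (chr18:69343356-69689079, plus strand), was at 197.3 FPKM in the NS group and 210.6 FPKM in the knockdown group, with a log2 ratio of 0.09. Tcf12, also known as HEB (chr9:71842688-72111871, minus strand), was at 27.0 FPKM in the NS group and 26.4 FPKM in the knockdown group, with a log2 ratio of -0.034. Tcf3, whose products are E12 and E47 (chr10:80409514-80433647, minus strand), was at 27.6 FPKM in the NS group and 23.1 FPKM in the knockdown group, with a log2 ratio of -0.26. Tcf4 alone supplied 78.3% of the summed E protein level in the NS group and 81.0% in the knockdown.

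The summed E protein level was 252 FPKM in the NS group and 260.0 FPKM in the knockdown, 3.25% higher. Neurod1, which had no value of its own, is left out of the following sum. The 5 NEUROD genes and neurogenins with a locus were together at 399 FPKM in the NS group and 365 FPKM in the knockdown. Their sum was thus 159% of the E protein sum in the NS group and 140% in the knockdown. The E protein genes have many isoforms, and Tcf4 and Tcf12 are long. Tcf4 spans 345.7 kb with 46 annotated coding transcripts, Tcf12 spans 269.2 kb with 11 and Tcf3 spans 24.1 kb with 12, and 1 value per locus cannot separate them. Tcf12 overlaps 11 other annotated genes, 1 of them a microRNA gene, and Tcf4 overlaps 1, a ribosomal RNA gene. Whether reads from these entered the values of Tcf12 and Tcf4 was not tested.

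**Figure D2:**
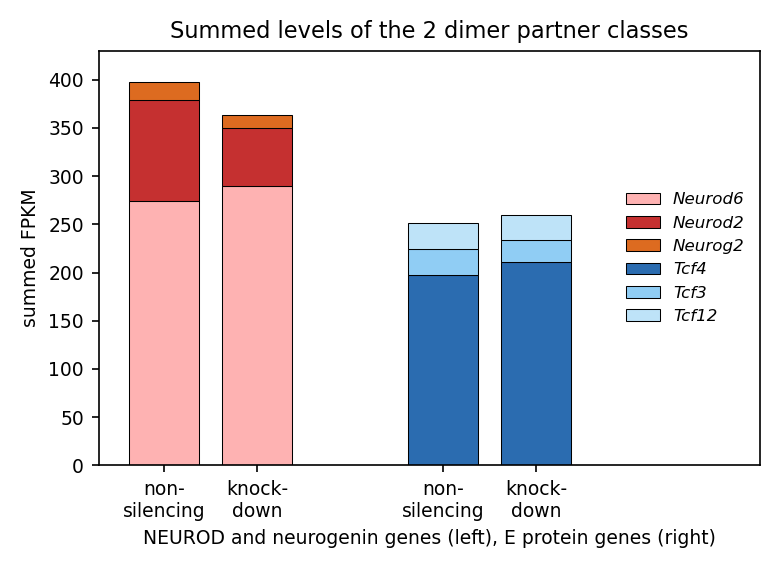
Summed level in FPKM, from 0, of Neurod6, Neurod2 and Neurog2 (left pair of bars) and of Tcf4, Tcf3 and Tcf12 (right pair) in the NS and the Neurod2 knockdown group; Neurod4 and Neurog1, both under 2 FPKM, are left out of the bars. The dark red Neurod2 segment shrinks from 104.8 to 60.3 FPKM while the Neurod6 and Tcf4 segments are at similar heights in both groups.

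Bhlhe22, a repressor of postmitotic neurons also called BHLHB5 (chr3:18054174-18057517, plus strand, 1 exon), was at 209.5 FPKM in the NS group and 195.4 FPKM in the knockdown group. Its log2 ratio was -0.10, and 50.5% of the background loci lay farther from 0. It was the second most abundant of the 9 genes in the NS group.

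From the highest to the lowest level in the NS group the order was Neurod6, Bhlhe22, Tcf4, Neurod2, Tcf3, Tcf12, Neurog2, Neurod4 and Neurog1. In the knockdown Bhlhe22 and Tcf4 changed places, as did Tcf3 and Tcf12. The steps between these neighbours were 1.06-fold and 1.02-fold in the NS group, and with 1 value per group it cannot be said which neighbours differ beyond the spread between libraries. The step from Tcf4 down to Neurod2 was 1.88-fold in the NS group and 3.49-fold in the knockdown, where Bhlhe22 lay between them. All other neighbours kept their order.

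Over the 8 genes with a mean of at least 1 FPKM, 1 (Neurod2) was past 1.5-fold lower and none was past 1.5-fold higher. Of all 12612 background loci, 2.09% were past 1.5-fold lower and 1.34% past 1.5-fold higher, 3.43% in all. At the milder ratio of 5 to 4, Neurog2 was also counted as lower, beside 5.62% of the background loci, and at 2-fold none of the 8 genes was, beside 0.793%. The median log2 ratio of the 8 genes was -0.15, with 6 below 0 and 2 above, and it was -0.10 for the 7 genes other than Neurod2. The median of all background loci was -0.032, with 10% of the loci below -0.24 and 10% above 0.18. Neurod2, Neurog2 and Tcf3 thus lay below the middle 80% of loci and the other 5 genes inside it. The share past 1.5-fold in either direction depended on the level. It was 5.33% for loci from 1 to under 5 FPKM, where Neurod4 lies, 1.38% from 5 to under 20 FPKM, where Neurog2 lies, 2.82% from 20 to under 100 FPKM, where Neurod2, Tcf3 and Tcf12 lie, and 12.4% at 100 FPKM and above, where Neurod6, Tcf4 and Bhlhe22 lie.

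**Figure D3:**
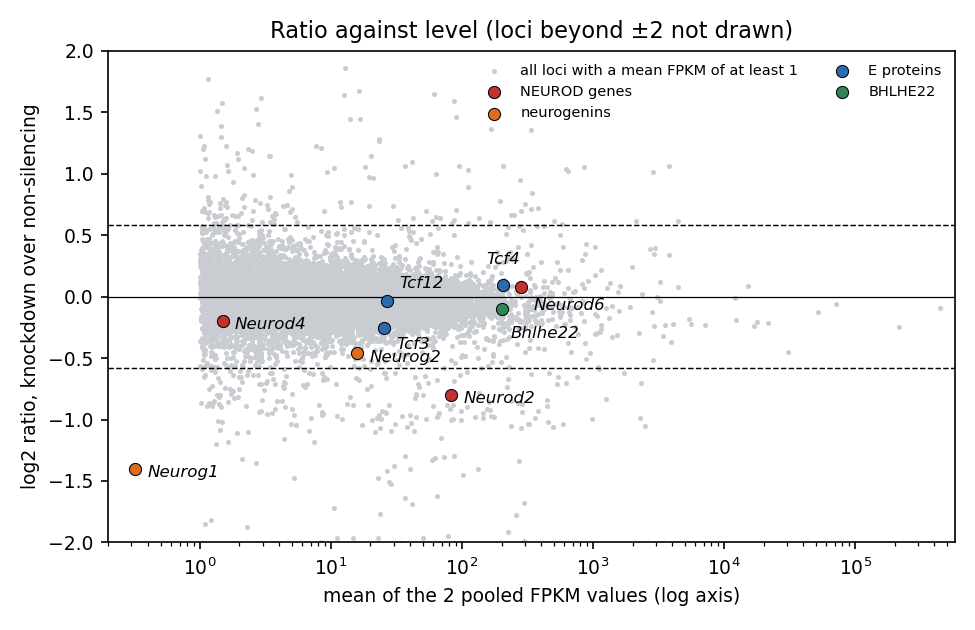
Log2 ratio of the knockdown over the NS value (vertical axis) against the mean of both values in FPKM (horizontal log axis), for the 12612 background loci (gray) and the 9 genes with a locus (coloured by role); dashed lines mark 1.5-fold, and loci beyond ±2 are not drawn. Neurod2 lies below the lower dashed line, Neurog2 between it and 0, and Neurog1 lies left of 1 FPKM, outside the range of the background loci.

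Sequence upstream of Neurod2 and Neurod6, the most abundant NEUROD genes with a locus, is shown for the motif that bHLH dimers bind. The shRNAs target the RNA of Neurod2, so its ratio was not set against this sequence. The 250 bases before the RefSeq start site on GRCm38.p6 are given 5′ to 3′ on the strand of the gene. Capitals mark E-boxes.
Neurod2 (chr11:98329646-98329895, - strand): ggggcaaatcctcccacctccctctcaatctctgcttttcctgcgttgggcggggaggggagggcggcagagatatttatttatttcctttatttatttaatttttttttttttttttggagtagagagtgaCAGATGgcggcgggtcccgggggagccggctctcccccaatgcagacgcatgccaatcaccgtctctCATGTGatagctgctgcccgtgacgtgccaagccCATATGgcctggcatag
Neurod6 (chr6:55681264-55681513, - strand): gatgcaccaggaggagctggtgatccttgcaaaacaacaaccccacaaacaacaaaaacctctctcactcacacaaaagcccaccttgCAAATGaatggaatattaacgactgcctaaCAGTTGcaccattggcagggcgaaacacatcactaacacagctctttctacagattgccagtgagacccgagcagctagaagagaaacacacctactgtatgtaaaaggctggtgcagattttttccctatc
Counted over 250 bases before and 50 bases after the start, the Neurod2 window held 3 E-boxes, CAGATG at -118, CATGTG at -51 and CATATG at -17 from the start site. The Neurod6 window held 2, CAAATG at -162 and CAGTTG at -132. The letters CANNTG read the same on both strands, and they were found in 72.3% of 32851 such windows of all genes. The median window held 1 E-box, and 6.49% of the windows held 4 or more. CAGATG or its complement CATCTG was found in 17.2% and CATATG in 3.91% of the windows. Of the 8 genes with a window in the RefSeq table, Neurog2 had no E-box in its window, and the remaining 5 genes had 0 to 2 E-boxes in each of their windows. Bhlhe22 and Tcf4 had no window in the table. A match in a window is a description of its letters only.

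The inhibitors of bHLH proteins were near their NS levels. Of 10 ID, HES and HEY genes, 7 had a mean of at least 1 FPKM, and none of these was past 1.5-fold. The log2 ratio was below 0 for 5 and above 0 for 2, with a median of -0.0048. Id2, the most abundant of them, was at 202.5 FPKM in the NS group and 202.0 FPKM in the knockdown. Hes6, a HES gene that promotes rather than inhibits neuronal differentiation, was at 99.8 FPKM in the NS group and 84.7 FPKM in the knockdown (log2 ratio -0.24), and Hes5, a target of Notch signalling in progenitors, was at 65.2 FPKM in the NS group and 60.7 FPKM in the knockdown. The highest ratio was that of Id3, at 42.4 FPKM in the NS group and 52.7 FPKM in the knockdown (log2 ratio 0.31), named after its value was seen.

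Of 16 other neural bHLH genes only 4 passed the minimum. Olig1 and Olig2, which act in the oligodendrocyte lineage, were at 56.4 and 36.9 FPKM in the NS group and at 52.4 and 36.9 FPKM in the knockdown. Nhlh2, a bHLH gene of early neurons, was the only 1 of the 4 past 1.5-fold, at 2.48 FPKM in the NS group and 4.34 FPKM in the knockdown (log2 ratio 0.81). It lies in the range of levels where 5.33% of background loci were past 1.5-fold in either direction.

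Nhlh2 was also 1 of 8 markers of Cajal-Retzius cells, the reelin-secreting neurons of the marginal zone. Of the 5 of these markers with a mean of at least 1 FPKM, 4 were past 1.5-fold higher, beside 1.34% of all background loci, and the median log2 ratio of the 5 was 0.81. They were Reln, Calb2, Ndnf and Nhlh2, and Reln went from 11.7 FPKM in the NS group to 24.3 FPKM in the knockdown (log2 ratio 1.06). The summed level of the list was 21.9 FPKM in the NS group and 41.9 FPKM in the knockdown. No marker of the list was listed at 0 in the NS group. Whether more Cajal-Retzius cells, more RNA per cell or RNA of other cells carried the Nhlh2 value was not tested. For Reln, the study also measured higher mRNA by RT-qPCR and a slight rise of the protein in such cultures. It proposes that NEUROD2 represses Reln in cortical neurons.

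Cofactors of bHLH dimers, among them co-repressors and histone acetyltransferases, were also within 1.5-fold. Of 13 genes, 11 had a mean of at least 1 FPKM, with 6 ratios below 0, 5 above and a median log2 ratio of -0.0038. Lmo4, a LIM adaptor that joins cortical bHLH complexes, was at 109.4 FPKM in the NS group and 119.4 FPKM in the knockdown. Kdm1a, a histone demethylase, was at 113.6 FPKM in the NS group and 102.7 FPKM in the knockdown, and Ldb1, the partner of LIM proteins, was at 71.4 FPKM in the NS group and 66.3 FPKM in the knockdown.

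A wider list, chosen by hand, of genes known to act before or after the neurogenins and NEUROD proteins also had no gene past 1.5-fold. It does not hold all reported targets. Reln, which the study reports as bound by NEUROD2 and higher in the knockdown, is not in it. Its log2 ratio of 1.06 is given above with the Cajal-Retzius markers. Of the 24 genes in the list, 22 had a mean of at least 1 FPKM, 15 had a ratio below 0 and 7 above, and the median log2 ratio was -0.055. The most abundant were Sox11 at 356 FPKM in the NS group and 332 FPKM in the knockdown, Gap43 at 316 and 350 FPKM, and Dcx at 235 and 250 FPKM. Sox11 encodes a transcription factor of young neurons, Gap43 a protein of growing axons and Dcx a microtubule protein of migrating neurons. The lowest ratios of the list, named after their values were seen, were those of Cntn2, Eomes and Insm1. Cntn2, an adhesion gene of cortical axons, was at 35.3 FPKM in the NS group and 25.5 FPKM in the knockdown (log2 ratio -0.47), and Insm1, a zinc-finger gene of basal progenitors, was at 62.1 FPKM in the NS group and 47.3 FPKM in the knockdown (log2 ratio -0.39). Pax6 and Rnd2, a regulator and a target of Neurog2, had no locus by the rule.

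**Figure D4:**
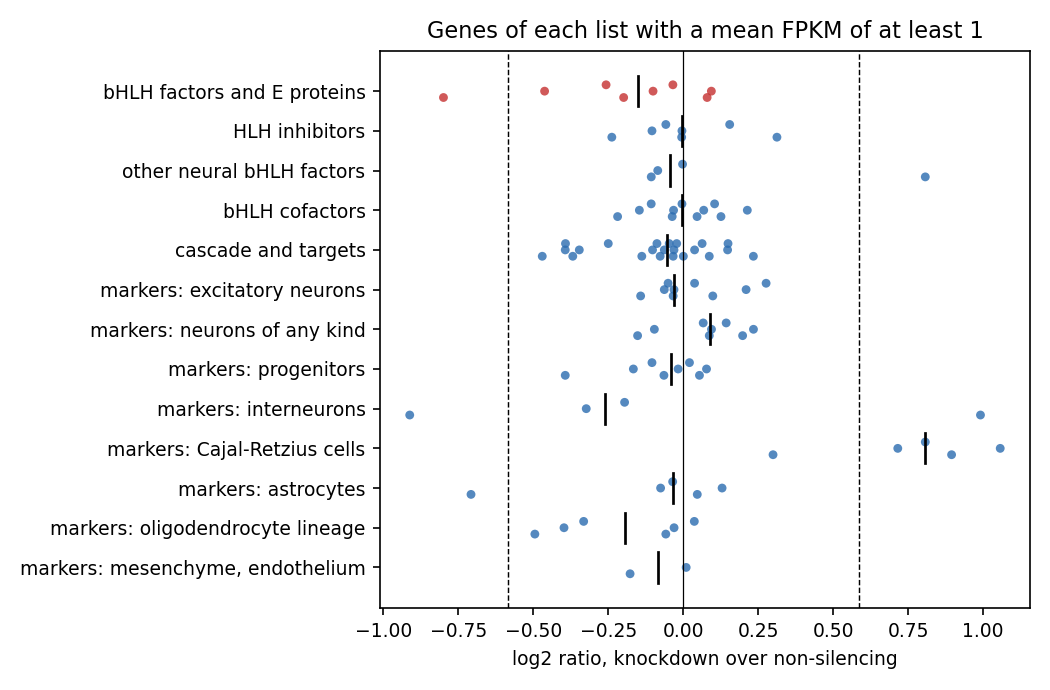
Log2 ratio of the knockdown over the NS value for the genes of each list with a mean of at least 1 FPKM (points, spread vertically for legibility), with the median of each list (black bar) and 1.5-fold (dashed lines); red points are the 8 bHLH genes described here and blue points the other lists. Most points lie within 1.5-fold, and the exceptions are Neurod2, the Cajal-Retzius markers Reln, Calb2, Ndnf and Nhlh2, the interneuron markers Sp8 and Sst, and Gfap.

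The marker genes of the cultures are given beside Neurod2 because cell types could differ between the groups. Of 9 measured markers of excitatory neurons, the cells in which Neurod2 is known to be expressed, none was past 1.5-fold. The log2 ratio was below 0 for 5 and above 0 for 4, with a median of -0.030. Their summed level was 396 FPKM in the NS group and 428 FPKM in the knockdown, of which Mef2c alone, named after its value was seen, made up 170.1 and 206.0 FPKM. The sum of 8 markers of neurons of any kind was 1920 FPKM in the NS group and 2044 FPKM in the knockdown. Their median log2 ratio was 0.091, and the ratio was below 0 for 2 of these markers and above 0 for 6. Interneuron markers had 1 of 4 measured genes past 1.5-fold lower and 1 higher, with a summed level of 34.1 FPKM in the NS group and 29.9 FPKM in the knockdown. The glial markers summed to 247 and 232 FPKM for astrocytes, where 1 of 5 measured genes, Gfap, was past 1.5-fold lower, and to 24.5 and 21.0 FPKM for the oligodendrocyte lineage, in the NS group and the knockdown. Gjb6, an astrocyte marker, was listed at 0 in both groups. Markers of microglia summed to under 1 FPKM in each group, and those of fibroblasts, mural and endothelial cells to 3.81 FPKM in the NS group and 5.17 FPKM in the knockdown. Their part in the values of the bHLH genes was not tested.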

How the data were processed

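RNA from mouse primary cortical cultures was measured in 6 libraries, 2 with the NS shRNA and 4 with an shRNA against Neurod2. Reads of 50 bases, single-end, were mapped to mm10 with TopHat, assembled with Cufflinks and compared as pooled groups with Cuffdiff. The tools stand in the submitters' processing notes, and the sources used here name neither version nor setting. For each locus the authors deposited 1 FPKM value per group, with the log2 ratio, test statistic, p-value and q-value of their own comparison. These were not used as results. No interval or limit of counting error could be given, since read depth is unknown.

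A spreadsheet had stored numbers as times in 5030 of 32357 loci. The numbers that give a stored time were listed. A pair was kept if it alone gave the deposited log2 value, both within rounding and within 2e-05. This restored 4924 of these loci, and 109 loci of the whole table were left without both values known. In a test on 3000 simulated loci, 99.9% were restored rightly, 0.1% stayed open and none was restored wrongly.

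Loci were matched by position to GENCODE M21 genes, where their intersection was at least 0.5 of their union. Log2 ratios were taken without a pseudocount, and counts used a mean of at least 1 FPKM and a fold of 1.5. A list gene with several loci was given the values of the locus with the highest mean FPKM alone. The members and lists were chosen with earlier results of these data known. The text names all 10 genes, and from each further list the genes past 1.5-fold and the 3 with the highest mean FPKM, apart from marker lists described by sums, and Reln. A gene that the rule would name is not reported here. Alternatives were other folds, filters, overlaps, pseudocounts and a rescaling of the knockdown values. Python 3.11.15, pandas 2.3.3, NumPy 2.4.6 and matplotlib 3.10.9 were used.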

Additional observations from a re-analysis of the deposited data

How the results depend on the processing

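Neurod2 was the only gene counted as past 1.5-fold lower under the alternatives tried, apart from 3 of them. At a ratio of 5 to 4 in place of 1.5-fold the count was 2, with Neurog2 added, and at 2-fold it was 0. Without the minimum of 1 FPKM it was 2, with Neurog1 added, while the share of background loci past 1.5-fold went from 3.43% to 16.3%. Counting only loci that the authors had tested was an alternative chosen after seeing the data. No log2 ratio changed its direction. That of Neurog1 was -1.03 with 0.1 FPKM added to both values and -0.31 with 1 FPKM added. With a minimum of 5 FPKM the median of the interneuron markers was -0.62 and that of the Cajal-Retzius markers 0.98, over fewer genes. The other 43 values and 15 counts or shares moved by less. Some of these values could not move. Each gene with a locus had only 1, so summing its loci gave the same value, and the minimum of 5 FPKM dropped no gene from several lists. No paired analysis was possible because the deposited table holds 1 pooled value per group, and for the same reason no library could be left out. Replicate numbers, shRNAs and sequencing depth could not be examined.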
